A study of Mus musculus with 6 samples.

Results

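The subject here is 10 transcripts that mark neutrophils and their granules, read in BMDMs (bone marrow-derived macrophages) that had been kept together with neutrophils. They were taken by gene symbol from the 55335 genes of an FPKM table (fragments per kilobase, relative to all fragments of the same library). *Ngp*, *Ltf*, *Camp* and *Lcn2* encode proteins of specific (secondary) granules, *Mpo* and *Elane* proteins of azurophil (primary) granules, *S100a8* and *S100a9* the pair that forms calprotectin, and *Cd177* and *Ly6g* neutrophil surface proteins. No measured value chose them, although they were picked with earlier results of these data known. The table covered 6 mouse libraries, 3 labelled WT and 3 labelled KO. In the first, BMDMs of genotype WT had been co-cultured for 24 h with neutrophils of *Cd177* WT mice, and in the second BMDMs of the same genotype with neutrophils of *Cd177* KO mice. In both groups the BMDMs came from marrow cells grown for 7 days in 25 ng/ml M-CSF, the neutrophils were isolated magnetically from the injured spinal cord at 3 dpi (days post-injury), and the BMDMs were sorted as Ly6G-negative cells before RNA extraction. The methods name male mice throughout and adult C57BL/6 animals. The design of the *Cd177* KO allele, and how many animals stand behind a library, were not given in the sources used here, so the spread between the 3 libraries of a group may be technical in part.

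Neutrophils build their granules one class after another while they mature in the marrow. Azurophil granules with myeloperoxidase and serine proteases are filled in promyelocytes, specific granules with lactoferrin and cathelicidin in myelocytes, and the messenger RNAs of both classes fall again as the cell leaves the marrow. Calprotectin is a cytosolic calcium-binding complex that is made in bulk by neutrophils and also by monocytes. Macrophages in culture can make some of these products themselves, lipocalin 2 and calprotectin among them. All 6 libraries held sorted BMDMs and none held neutrophils alone, so RNA carried over from neutrophils and RNA made by the BMDMs cannot be told apart, nor can a change in the number of cells of a kind and a change in RNA per cell.

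The DNA before the start sites of the members is described first. Transcription factors of the C/EBP family act on many granule genes, and the sequence TTGCNNAA was searched on both strands in the 250 bases before the RefSeq start of each gene. It was present in 5 of the 10 genes (*Ngp*, *Ltf*, *Lcn2*, *S100a9* and *Ly6g*) and in 9.56% of 32851 mouse promoters. *Ngp* held 2 matches, at 138 to 131 and at 11 to 4 bases before its start. The sequence GAGGAAGT, a core of PU.1 sites, was present in 4 genes (*S100a8*, *Mpo*, *Elane* and *Ly6g*) and in 2.44% of promoters. No match of one sequence overlapped a match of the other in these genes. *Cd177* and *Camp* held neither. A match describes letters only. The stretches below, from RefSeq on GRCm38.p6, run 5′ to 3′ up to the first annotated exon base, with the C/EBP match in capitals. They are shown because each holds a C/EBP match outside annotated exons, so the choice rests on the match and not on the expression values. Stretches of the other members are not printed.
Ngp (chr9:110419558-110419746, plus strand, 189 bases): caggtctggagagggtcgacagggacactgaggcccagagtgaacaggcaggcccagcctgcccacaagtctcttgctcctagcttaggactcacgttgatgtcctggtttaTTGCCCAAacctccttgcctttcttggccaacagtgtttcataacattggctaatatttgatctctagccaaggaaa
Ltf (chr9:111019042-111019270, plus strand, 229 bases): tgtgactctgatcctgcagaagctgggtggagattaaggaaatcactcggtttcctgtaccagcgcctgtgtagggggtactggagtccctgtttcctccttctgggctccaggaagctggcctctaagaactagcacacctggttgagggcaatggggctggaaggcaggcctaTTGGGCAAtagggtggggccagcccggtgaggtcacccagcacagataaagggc
S100a9 (chr3:90695722-90695971, minus strand, 250 bases): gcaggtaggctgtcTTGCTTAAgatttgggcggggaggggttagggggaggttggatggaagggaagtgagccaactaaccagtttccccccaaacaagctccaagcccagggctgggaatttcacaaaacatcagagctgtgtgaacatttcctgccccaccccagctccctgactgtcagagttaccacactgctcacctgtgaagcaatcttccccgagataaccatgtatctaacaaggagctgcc
Ly6g (chr15:75155011-75155239, plus strand, 229 bases): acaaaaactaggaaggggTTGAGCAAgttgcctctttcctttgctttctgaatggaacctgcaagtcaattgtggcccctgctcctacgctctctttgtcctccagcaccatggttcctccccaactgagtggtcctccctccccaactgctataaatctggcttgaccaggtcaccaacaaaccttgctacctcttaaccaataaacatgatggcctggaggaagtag
The match of *Lcn2* and the one nearest to the start of *Ngp* lie within annotated exons and are not shown.

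The gene that was knocked out in the neutrophil donors went against the labels. *Cd177* encodes a GPI-anchored neutrophil surface protein that binds PECAM-1. Its level was 0.544, 0.309 and 0.521 FPKM in the labelled-WT libraries and 1.79, 1.84 and 2.28 FPKM in the labelled-KO ones (ENSMUSG00000052212, chromosome 7, 24743983 to 24760311, GRCm38). Every library labelled KO therefore lay above every library labelled WT, and the groups did not overlap. The log2 fold change was 1.37 (SE 0.159), with an adjusted p of 0.000827 by limma. For this reason the groups are called labelled-WT and labelled-KO libraries throughout, and every direction below rests on those labels. Whether the labels were exchanged, which would turn every direction, or whether the KO allele still gives RNA was not tested. The BMDMs were of genotype WT in both groups, so *Cd177* RNA of the BMDMs was open to measurement in all 6 libraries.

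Of the 10 transcripts, 7 averaged 0.5 FPKM or more across libraries and entered the test, which ran across 13367 genes on log2(FPKM + 0.5). On that scale the change of a low gene comes out too small. *Cd177*, at a mean of 0.458 FPKM in the labelled-WT libraries, entered through its labelled-KO values. All 7 tested members passed an adjusted p of 0.05, each of them higher in the labelled-KO libraries. Among all tested genes 27.1% were higher and 10.5% lower by the same rule, so the labelled-KO libraries were higher across much of the table. The median log2 fold change was 1.78 over the 7 members and 0.19 over all tested genes. When libraries were rescaled by median-of-ratios the median of all genes moved to -0.01, the share of calls that were higher moved from 72.0% to 47.7%, and 6 members, all but *S100a8*, were called higher against 15.4% of all genes. *Ly6g*, *Mpo* and *Elane* were under the filter. With every gene above 0 in at least 1 library tested, 8 members were called higher, with *Ly6g* as the addition, against 11.3% of 28101 genes. *Ly6g*, listed at 0 in every labelled-WT library, entered through its labelled-KO values and could only come out higher. Counted without a test, all 7 tested members had groups that did not overlap, with the labelled-KO libraries higher, where 37.5% of tested genes had the same. Under the filter *Ly6g* and *Mpo* had the same, which makes 9 of the 10 members, but no share was computed for genes that low.

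**Figure D1:**
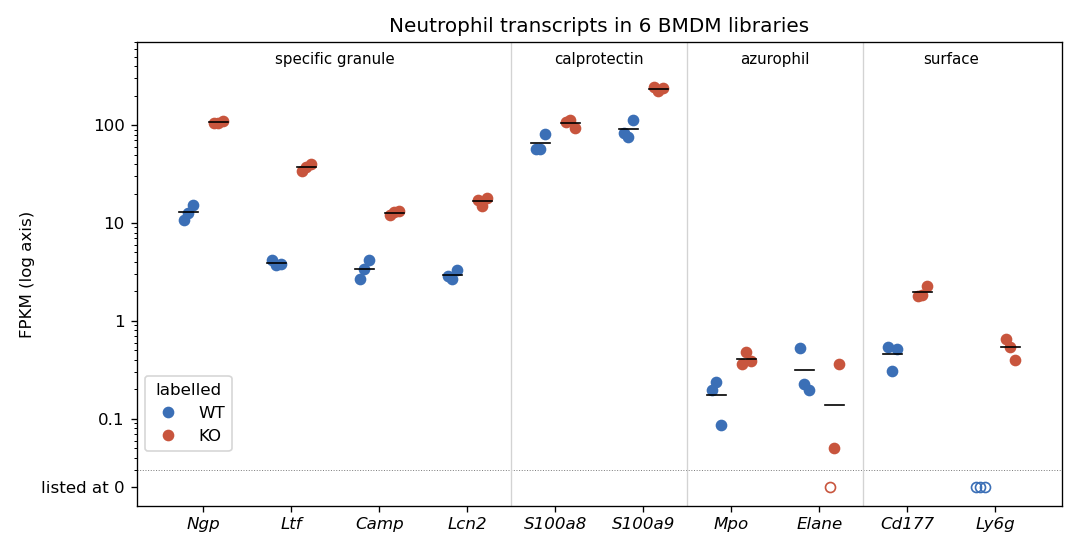
Level of each of the 10 transcripts in each library in FPKM on a log axis, with libraries labelled WT in blue, libraries labelled KO in red, group means as black lines and values listed at 0 as open circles. The 4 specific granule transcripts stand far apart between the groups, *Ngp* at 10.7 to 15.3 against 105 to 110.3 FPKM, while *Mpo* and *Elane* stay under 1 FPKM in all 6 libraries.

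*Ltf*, *Ngp* and *Lcn2*, all of specific granules, had the greatest log2 fold changes among the members. *Ngp* encodes neutrophilic granule protein, a cystatin-like protein of rodent neutrophils (ENSMUSG00000032484, chromosome 9, 110419747 to 110423012). It stood at 10.7, 12.6 and 15.3 FPKM in the labelled-WT libraries and at 105, 106 and 110.3 FPKM in the labelled-KO ones. The mean rose from 12.9 ± 2.29 to 107 ± 2.80 FPKM (SD, n = 3 each), an 8.31-fold ratio of means. By limma the log2 fold change was 3.02 (SE 0.130, adjusted p = 1.13e-05), and 99.9% of tested genes had a lower log2 fold change. The smallest value labelled KO was thus several times the greatest value labelled WT.

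*Ltf* encodes lactoferrin, the iron-binding protein of specific granules (ENSMUSG00000032496, chromosome 9, 111019271 to 111042767). It was listed at 4.23, 3.73 and 3.80 FPKM in the labelled-WT libraries and at 34.1, 37.0 and 39.9 FPKM in the labelled-KO ones. Its log2 fold change of 3.09 (SE 0.097) was the greatest of the 7 tested members, with an adjusted p of 3.51e-06 by limma. The intervals of *Ltf* (95% interval 2.86 to 3.32) and *Ngp* (2.71 to 3.33) overlapped widely. Both groups were tight beside the gap between them.

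*Lcn2* encodes lipocalin 2, which binds bacterial siderophores and is made by activated macrophages as well as neutrophils (ENSMUSG00000026822, chromosome 2, 32384633 to 32388252). Its levels were 2.85, 2.66 and 3.35 FPKM in the labelled-WT libraries and 17.2, 14.9 and 17.9 FPKM in the labelled-KO ones, with no overlap. The log2 fold change was 2.31 (SE 0.117, adjusted p = 2.16e-05 by limma).

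*Camp* encodes the cathelicidin precursor of the antimicrobial peptide CRAMP (ENSMUSG00000038357, chromosome 9, 109847379 to 109849617). It was at 2.65, 3.39 and 4.21 FPKM in the labelled-WT libraries and at 12.0, 12.9 and 13.4 FPKM in the labelled-KO ones. The log2 fold change of 1.78 (SE 0.153, adjusted p = 0.000241 by limma) was the smallest of the 4 specific granule members. Its 95% interval (1.42 to 2.15) lay below those of *Ngp* and *Ltf*. It overlapped those of *Lcn2* (2.04 to 2.59), *S100a9* (1.02 to 1.76) and *Cd177* (0.99 to 1.75). *Camp*, *Ngp* and *Ltf* lie within 1195389 bases of chromosome 9. Of the 16 other tested genes between *Camp* and *Ltf*, 3 were called higher and 1 lower, with a median log2 fold change of 0.16 and a range from -1.81 to 0.87, so each of these neighbours changed less upward than *Camp*, *Ngp* and *Ltf*.

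The calprotectin genes were already high in the labelled-WT libraries. *S100a9* (ENSMUSG00000056071, chromosome 3, 90692632 to 90695721) stood at 82.4, 75.9 and 113 FPKM in the labelled-WT libraries and at 243.8, 221 and 238 FPKM in the labelled-KO ones. Its log2 fold change was 1.39 (SE 0.154, adjusted p = 0.000682 by limma). *S100a8* (ENSMUSG00000056054, chromosome 3, 90668978 to 90670035) stood at 56.7, 56.7 and 81.3 FPKM and at 107, 112 and 94.0 FPKM. Its groups did not overlap, and labelled-WT replicate 3 (81.3 FPKM) lay nearest to labelled-KO replicate 3 (94.0 FPKM). The log2 fold change of *S100a8* was 0.69 (SE 0.159, 95% interval 0.32 to 1.07, adjusted p = 0.0141 by limma), and 84.9% of tested genes had a lower one. The call of *S100a8* was lost with median-of-ratios scaling (log2 fold change 0.47, adjusted p = 0.0806) and without labelled-WT replicate 1 (adjusted p = 0.0509), labelled-KO replicate 1 (0.0523) or labelled-KO replicate 2 (0.0552), all by limma.

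The azurophil granule transcripts were near the floor of the table. *Mpo*, which encodes myeloperoxidase (ENSMUSG00000009350, chromosome 11, 87793581 to 87804413), stood at 0.196, 0.239 and 0.0866 FPKM in the labelled-WT libraries and at 0.361, 0.480 and 0.389 FPKM in the labelled-KO ones. The groups did not overlap, and an exact two-sided permutation test gave p = 0.1, the smallest that 3 against 3 libraries allow. Without the filter on low values its adjusted p was 0.0638 by limma. *Mpo* overlaps *Gm11505* on the opposite strand, and whether the counting used strand was not given. *Elane*, which encodes neutrophil elastase (ENSMUSG00000020125, chromosome 10, 79886247 to 79888215), was listed at 0.531, 0.225 and 0.197 FPKM in the labelled-WT libraries and at 0, 0.0499 and 0.365 FPKM in the labelled-KO ones. These values overlapped (exact permutation p = 0.3). If the step of low values is 1 fragment, they amount to at most about 10 fragments in a library, although counts were not recovered. A difference in *Elane* was not detectable at this depth.

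*Ly6g* encodes the surface antigen on which the sort was gated (ENSMUSG00000022582, chromosome 15, 75155240 to 75159126). It was listed at 0 in labelled-WT replicates 1, 2 and 3 and at 0.660, 0.547 and 0.403 FPKM in the labelled-KO ones. If the step of low values is 1 fragment, these levels amount to about 11, 10.5 and 7.0 fragments. No fold is given against values listed at 0, and the adjusted p without the filter was 0.00232 by limma. The gene entered that test through its labelled-KO values alone, so the direction of the call was fixed. *Ly6g* has close relatives in the Ly6 cluster, and how shared fragments were assigned was not given. Every library labelled KO therefore held a low level of this RNA after a sort against its protein, whereas none labelled WT was listed above 0.

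The order of levels in FPKM, which are per length, differed between the groups. In the labelled-WT libraries it ran *S100a9*, *S100a8*, *Ngp*, *Ltf*, *Camp*, *Lcn2*, *Cd177*, *Elane*, *Mpo* and *Ly6g* by mean FPKM. The ranges of *Ltf*, *Camp* and *Lcn2* in turn and of *Elane* and *Mpo* overlapped, and each neighbouring pair kept its order in 2 of the 3 labelled-WT libraries. The ranges of *S100a9* and *S100a8* and of *Cd177* and *Elane* overlapped as well, although the order within a library was the same in all 3. In the labelled-KO libraries the order was *S100a9*, *Ngp*, *S100a8*, *Ltf*, *Lcn2*, *Camp*, *Cd177*, *Ly6g*, *Mpo* and *Elane*. There *Ngp* and *S100a8* overlapped (mean 107 and 104 FPKM), with *Ngp* the higher in 1 of 3 libraries. *Ly6g* and *Mpo*, and *Mpo* and *Elane*, overlapped in range but kept this order in all 3. *Lcn2* lay above *Camp* in all 3 labelled-KO libraries, where in the labelled-WT ones the pair had overlapped.

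Ratios within a library do not depend on the scaling between libraries, and they addressed whether the granule transcripts kept fixed proportions. Of 12 ratios listed, 9 could be computed, because *Ly6g* or *Elane* was at 0 in some library for the others. *Ltf* to *Ngp* was 0.394, 0.295 and 0.248 in the labelled-WT libraries and 0.325, 0.349 and 0.362 in the labelled-KO ones. These values overlapped, with a log2 difference of 0.17 (SE 0.200, pairs of libraries differing by -0.28 to 0.54, exact two-sided permutation p = 0.5). For the other 8 ratios the groups did not overlap, and each had an exact two-sided permutation p of 0.1 (0.1125 adjusted over the 9), the smallest possible with 3 against 3 libraries, so none could reach 0.05.

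*Camp* to *Ngp* was 0.247, 0.268 and 0.275 in the labelled-WT libraries and 0.115, 0.122 and 0.121 in the labelled-KO ones, a log2 difference of -1.14 (SE 0.055). *Lcn2* to *Ngp* was lower as well, with means of 0.232 ± 0.0298 and 0.156 ± 0.0128 (SD, n = 3 each). Thus *Camp* and *Lcn2* stood in a lower proportion to *Ngp* in every labelled-KO library, whereas the proportion of *Ltf* to *Ngp* overlapped. *Mpo* to *Ngp* had means of 0.0143 and 0.00383, with labelled-WT replicate 3 at 0.00566 well under the 0.0182 and 0.0189 of the other libraries labelled WT. *Cd177* to *Ngp* had means of 0.0364 and 0.0184.

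Calprotectin transcripts stood in a lower proportion to *Ngp* in every labelled-KO library. *S100a8* to *Ngp* was 5.29, 4.49 and 5.32 in the labelled-WT libraries and 1.01, 1.05 and 0.852 in the labelled-KO ones, a log2 difference of -2.37 (SE 0.123). *S100a9* to *Ngp* had means of 7.03 ± 0.896 and 2.19 ± 0.120. *Lcn2* to *S100a8* had means of 0.0461 and 0.162, a log2 difference of 1.80 (SE 0.17). Within the calprotectin pair the proportion lay higher. *S100a9* to *S100a8* was 1.45, 1.34 and 1.39 in the labelled-WT libraries and 2.29, 1.98 and 2.53 in the labelled-KO ones, with a log2 difference of 0.70 (SE 0.108).

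**Figure D2:**
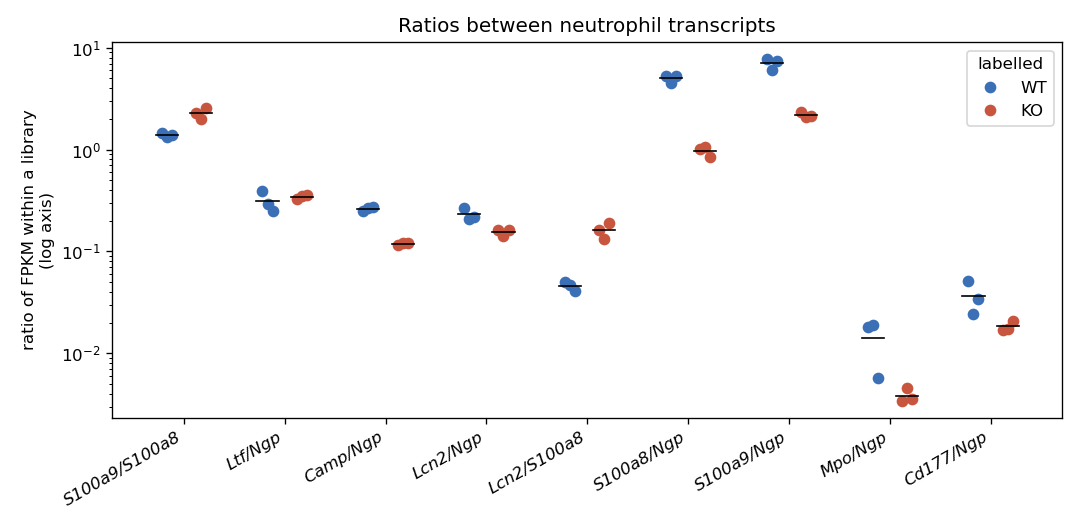
Ratio of the FPKM of 2 transcripts within each library on a log axis, with libraries labelled WT in blue, libraries labelled KO in red and group means as black lines. *Ltf* to *Ngp* overlaps between the groups at 0.248 to 0.394 and 0.325 to 0.362, and the other 8 ratios do not overlap.

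The differences of group means were also set against each other, as amounts of FPKM gained in the labelled-KO libraries. The gain was 94.2 FPKM (SE 2.09) for *Ngp*, 33.1 (SE 1.70) for *Ltf*, 13.7 (SE 0.919) for *Lcn2* and 9.37 (SE 0.597) for *Camp*. It was 144 FPKM (SE 13.3) for *S100a9*, 39.2 (SE 9.73) for *S100a8* and 1.51 (SE 0.174) for *Cd177*. The gain of *Ltf* was 0.351 of that of *Ngp*, and the gain of *S100a9* was 3.68 times that of *S100a8*. Such a ratio of gains follows from the group levels already given and is no separate result. For *S100a9* to *S100a8* it must exceed the labelled-KO ratio of means, because that ratio lies above the labelled-WT one. No error was computed for these ratios. The gain of *Mpo* was 0.00251 of that of *Ngp*. What these proportions are in the co-cultured neutrophils was not measured in the 6 libraries.

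Other genes of the neutrophil programme were read from lists set up with earlier results known. The filter took the mean over all 6 libraries, so a gene low in 1 group could enter through the other. *Chil1*, *Olfm4*, *Itgb2l*, *Wfdc21*, *Padi4*, *Cxcr2*, *Lrg1*, *G0s2* and *Cebpe* averaged under 0.5 FPKM in the labelled-WT libraries and entered through labelled-KO values. *Arg2*, *Trem1*, *Slfn4* and *Hdc* averaged under 0.5 FPKM in the labelled-KO libraries. Counts and medians are thus tied to direction for these genes. The counts of each list, here and below, stand beside 27.1% higher and 10.5% lower among all tested genes. Of the 8 specific granule genes listed beside the members, 7 were tested, 5 were higher and 2 lower, with a median log2 fold change of 1.42 against 0.19 over all tested genes. *Chil1*, a chitinase-like protein, was at 0.0374, 0.138 and 0.0594 FPKM in the labelled-WT libraries and at 2.47, 2.18 and 2.27 FPKM in the labelled-KO ones (adjusted p = 4.43e-05 by limma). *Olfm4*, olfactomedin 4 of a subset of specific granules, rose from a mean of 0.299 to 1.67 FPKM, *Pglyrp1*, a peptidoglycan-binding protein, from 0.888 to 3.21 FPKM, and *Itgb2l* from 0.160 to 1.28 FPKM. *Ceacam1*, an adhesion molecule that other cells carry too, rose from 1.11 to 2.16 FPKM. The 2 that fell were *Hp*, haptoglobin, from 27.9 to 7.22 FPKM, and *Mmp8*, neutrophil collagenase, from 21.9 to 9.80 FPKM.

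The azurophil list could hardly be tested. Of its 9 genes, 7 were under the filter, *Mpo* and *Elane* among them, and *Bpi* was listed at 0 in all 6 libraries. *Prtn3*, proteinase 3, was at 0, 0.0635 and 0.0641 FPKM in the labelled-WT libraries and at 0.329, 0.514 and 0.438 FPKM in the labelled-KO ones. *Ctsg*, cathepsin G, was at 0.204, 0.374 and 0.269 FPKM and at 0, 0.140 and 0.262 FPKM, with overlap. Thus the groups of *Mpo* and *Prtn3* did not overlap and those of *Elane* and *Ctsg* did, all at values too low for the test. Of the 2 tested genes, *Cd63*, a tetraspanin of lysosomes in many cells, was not called (log2 fold change -0.17), and *Igfbp4*, a secreted binding protein of insulin-like growth factors that is no granule enzyme, rose from 14.9 to 133 FPKM.

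The gelatinase granule list went no single way. Of 6 tested genes 1 was higher, *Cfp* (properdin), and 2 were lower, *Adam8*, a surface protease that macrophages express too, and *Arg2*, mitochondrial arginase. *Cfp* stood at 163 to 192 FPKM in the labelled-WT libraries and at 222 to 268 FPKM in the labelled-KO ones. *Arg2* fell from 11.5 to 0.477 FPKM (log2 fold change -3.65, adjusted p = 3.42e-05 by limma). *Mmp9*, gelatinase B, had means of 12.6 and 15.2 FPKM and was not called (adjusted p = 0.0605 by limma).

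Among 10 further cytosolic genes listed with calprotectin, 6 were tested and 3 were called, each of them higher. *Wfdc21* rose from 0.395 to 3.27 FPKM, *Stfa2l1*, a stefin, from 0.512 to 2.18 FPKM and *Padi4*, the enzyme that citrullinates histones in neutrophil extracellular traps, from 0.286 to 1.51 FPKM. *S100a6* and *S100a11*, which most cells express, were not called. Among the 10 surface genes beside *Cd177* and *Ly6g*, 6 were tested, with 3 higher and 3 lower. The higher ones were *Csf3r*, the receptor of G-CSF (7.34 to 18.0 FPKM), *Cxcr2*, the receptor of neutrophil-attracting chemokines (0.382 to 1.16 FPKM), and *Siglece* (0.687 to 3.20 FPKM). The lower ones were the formyl peptide receptors *Fpr1* (12.9 to 3.24 FPKM) and *Fpr2* (38.4 to 4.49 FPKM) and *Trem1* (3.17 to 0.315 FPKM), all of which activated macrophages can also express. Whether BMDMs or neutrophils gave the RNA was not tested, for the higher genes or for the lower ones.

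In the list of other mature neutrophil genes 10 were tested, 3 were higher and 6 lower. *Retnlg*, a resistin-like secreted protein, rose from 1.92 to 6.22 FPKM, *Lrg1* from 0.108 to 1.64 FPKM and *G0s2* from 0.483 to 1.37 FPKM. *Clec4e* and *Clec4d*, C-type lectins shared with macrophages, fell, as did *Slfn4*, *Hdc*, *Ifitm6* and *Il36g*. Of the precursor genes 5 were tested, with 2 higher and 2 lower. *Cebpe*, the factor that drives specific granule genes in myelocytes, rose from 0.314 to 1.39 FPKM, and *Chil3* from 23.2 to 39.0 FPKM. *Hk3* and *Mcpt8* fell. *Gfi1* and *Fcnb*, which mark precursors, were under the filter, at group means of 0.1 and 0.167 FPKM and of 0.342 and 0.591 FPKM.

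Over all 53 neutrophil genes listed beside the members, 37 were tested, 16 were higher and 13 lower, where 27.1% of all tested genes were higher and 10.5% lower. The median log2 fold change, over genes that went both ways, was 0.21, beside 0.19 over all tested genes. All 7 tested members were higher, and the wider lists went both ways. These lists mix neutrophil genes with genes that other cells share. *Clec4d*, *Adam8* and *S100a11*, for example, had means of 545, 388 and 529 FPKM in the labelled-WT libraries. The pooled counts and median therefore do not describe neutrophil-restricted genes alone. With a mean of 1 FPKM required, 10 of these other genes were higher and 11 lower.

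**Figure D3:**
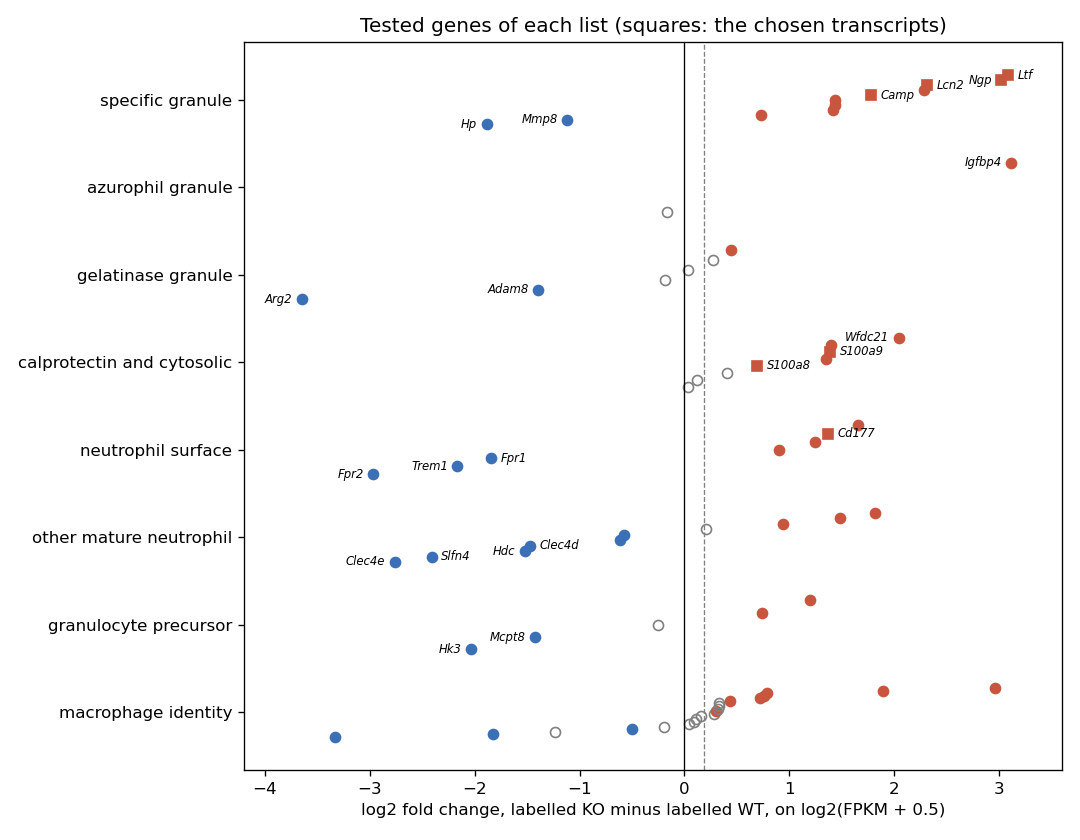
Log2 fold change on log2(FPKM + 0.5), libraries labelled KO minus labelled-WT libraries, for each tested gene of 8 lists. Red marks called higher, blue called lower, open grey not called, squares the chosen transcripts, and the dashed line the median of all tested genes at 0.19, and the specific granule list lies to the right except for *Hp* and *Mmp8*.

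Macrophage genes were abundant in all 6 libraries. The 20 macrophage identity genes summed to about 11830 to 14620 FPKM in the labelled-WT libraries and to 13340 to 14680 FPKM in the labelled-KO ones. Of these 20 genes 7 were higher and 3 lower, beside 27.1% higher and 10.5% lower among all tested genes. *Adgre1* (F4/80), *Csf1r* and *Cd68* had means of 241, 263 and 503 FPKM in the labelled-WT libraries and of 297, 283 and 560 FPKM in the labelled-KO ones. Other genes of this list changed as much as the granule transcripts did. *Mrc1*, the mannose receptor, rose from 27.99 to 220.7 FPKM (log2 fold change 2.96) and *Maf*, a macrophage transcription factor, from 15.7 to 59.5 FPKM (1.89), while *Cd14*, a co-receptor for lipopolysaccharide, fell from 1010 to 99.4 FPKM (-3.33) and *Fcgr1*, a high-affinity Fc receptor, from 121 to 33.8 FPKM (-1.83). The part of these genes in the granule result was not tested. Of 7 monocyte genes tested, 5 were higher, where 27.1% of all tested genes were. These were *Ccr2* (0.530 to 2.74 FPKM), *Ly6c2* (0.478 to 1.48 FPKM), *Ly6c1*, *F13a1* (6.39 to 36.7 FPKM) and *Chil3* (23.2 to 39.0 FPKM). *Ly6c2* passed the filter through its labelled-KO values. *Plac8* was lower, and *Vcan* (9.79 and 9.25 FPKM) was not called. The summed monocyte level was 47.1 to 49.7 FPKM against 94.3 to 96.1 FPKM, with the largest rises in *F13a1* and *Chil3*. The part of the monocyte genes in the granule result was not tested either.

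Markers of other cells were mostly low, though not all. *Pf4*, a platelet chemokine that macrophages also make, was at 829 to 1327 FPKM in the labelled-WT libraries and 782 to 845 FPKM in the labelled-KO ones (not called). *Ppbp* stood at 15.1 to 20.6 FPKM in the labelled-WT libraries and 6.69 to 7.27 FPKM in the labelled-KO ones. *Mcpt8* stood at 14.6 to 26.4 FPKM and at 6.36 to 7.52 FPKM. The 12 B lineage genes summed to 1.45 to 2.51 FPKM in the labelled-WT libraries and to 15.0 to 17.1 FPKM in the labelled-KO ones. The 3 tested were higher, *Ighm*, *Cd79b* and *Ebf1*, where 27.1% of all tested genes were. *Ighm*, at a mean of 0.247 FPKM in the labelled-WT libraries, passed the filter through its labelled-KO values. The defining *Pax5* and *Ms4a1* stayed under 0.05 FPKM in every library. Among 10 T and NK genes *Cd4* alone was tested and higher, and *Cd3d* and *Gzma* were at 0 throughout. Of the erythroid, megakaryocyte and platelet, and eosinophil, basophil and mast cell genes 7 were tested, and *Car2*, *Ppbp* and *Mcpt8*, the 3 called, were lower in the labelled-KO libraries. *Car2*, at a mean of 0.244 FPKM in the labelled-KO libraries, passed the filter through its labelled-WT values. *Epx* and *Slc4a1* were at 0 in all libraries. Of 10 spinal cord genes *Mbp* alone was tested and was not called, and *Mog*, *Snap25* and *Aqp4* were at 0. Their part in the granule result was not tested.

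**Figure D4:**
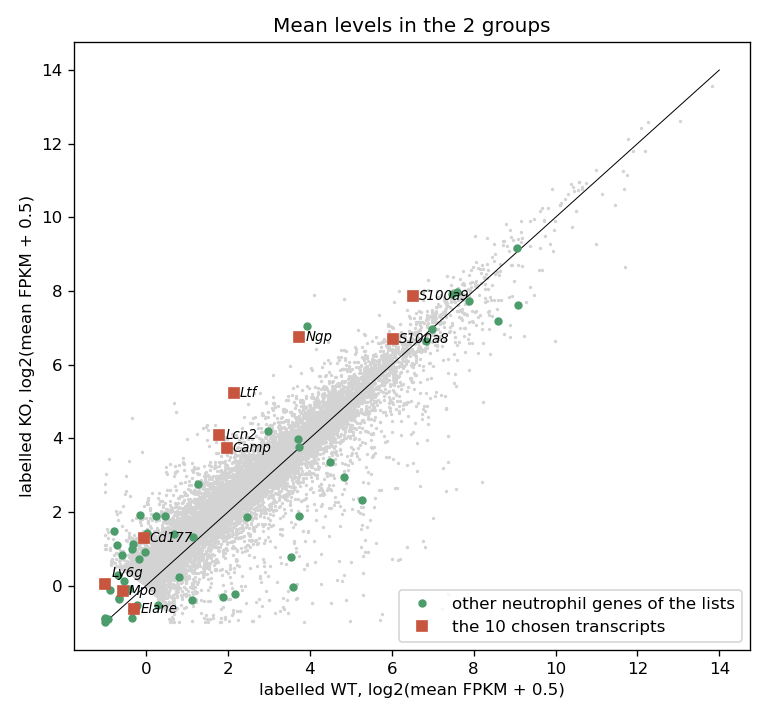
Mean level of each tested gene (grey) in the labelled-KO libraries against labelled-WT libraries, as log2(mean FPKM + 0.5) on both axes, with the 10 chosen transcripts as red squares, the other listed neutrophil genes in green and equality as a line. *Ngp*, *Ltf*, *Lcn2* and *Camp* lie well above the line, while the other neutrophil genes lie on both sides of it.

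Finally, the genes whose profile over the 6 libraries was most like the specific granule members were named. The profile was the mean of the standardised values of *Ngp*, *Ltf*, *Camp* and *Lcn2*, and likeness was Pearson's r, given as a description over 6 libraries that share one contrast. *Cd83* and *Gpr65* had r = 0.9998, *Hpgd* and *Ing4* 0.9996 and *Pink1* 0.9994. *Cd83*, a surface protein of activated antigen-presenting cells, was at 3.77, 4.02 and 4.45 FPKM in the labelled-WT libraries and at 16.3, 16.0 and 17.1 FPKM in the labelled-KO ones. *Hpgd*, which breaks down prostaglandins, was at 4.72, 4.82 and 5.69 FPKM and at 28.6, 29.0 and 33.0 FPKM. Of 10629 genes compared, 1408 (13.25%) had r of at least 0.95, so a like profile was common in this table and singled out no gene.

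The depth implied by the smallest steps of the values was 17600000 to 20300000 fragments per library. Between 39.6% and 43.5% of low values were whole numbers of steps to within 0.1, against 20% for evenly spread values. The step was itself set from the most common low values, which raises that share. Counts were thus not recovered, and intervals from counts are not given. The sums of FPKM per library ran from 302532 to 340717.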

How the data were processed

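RNA of 6 BMDM libraries, 3 labelled WT and 3 labelled KO, was sequenced. For 55335 mouse Ensembl identifiers, the values the authors deposited were FPKM. The submitters' processing notes name fastp 0.17.1, HISAT2 2.1.0, DESeq2 1.18.1 and R 3.4.3. The build, annotation and quantification tool were not given in the sources used here, and the kits and the sequencer named in the labels differ from those in the methods. Symbols and positions came from GENCODE M21 (GRCm38), which held 55154 of them (99.7%), and all 10 genes matched RefSeq promoters (GRCm38.p6).

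From these values log2(FPKM + 0.5) was tested with limma 3.58.1 in R 4.3.3 (eBayes with trend, two-sided, no covariates) for 13367 genes averaging 0.5 FPKM or more, with Benjamini-Hochberg adjustment over them. FPKM is relative to each library's total, so abundant genes that change shift all others. Ratios were compared by exact permutation over libraries. No count test was run, since whole fragments were not recovered. The scripts were tested on simulated data. Python 3.11.15 with pandas 2.3.3, scipy 1.17.1 and matplotlib 3.10.9 served for the rest.

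The members, lists and tests were chosen with earlier results of these data known. Genes named are the 10 members, genes of the lists, and, among genes averaging 1 FPKM or more, the 5 most like the profile of *Ngp*, *Ltf*, *Camp* and *Lcn2*, clone names left out. Alternatives were other pseudocounts, filters and scalings, a robust variance, a replicate block, and each library left out in turn.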

Additional observations from a re-analysis of the deposited data

How the results depend on the processing

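The 15 alternatives to the limma fit left the direction of all 7 tested members in place, and the number of members called higher ran from 6 to 8 (6 to 7 with 1 library left out). Of all 13367 genes, 2058 were called higher with median-of-ratios scaling and 4253 with the replicate block, the extremes at this filter. With 1 library left out it was 2442 to 4228. Without the filter it was 3180 of 28101, and *Ly6g*, the member added there, could only come out higher. *Ngp* kept a log2 fold change of 2.80 to 3.15, *Ltf* of 2.87 to 3.21, *Camp* of 1.57 to 1.92, *Lcn2* of 2.104 to 2.46, *S100a9* of 1.16 to 1.56 and *Cd177* of 1.03 to 1.91. *S100a8* ranged from 0.47 to 0.87 and lost its call in 4 of the 15, with adjusted p from 0.000859 to 0.0806 by limma. Among the other neutrophil genes, 10 were called higher with a mean of at least 1 FPKM in place of 16, since fewer genes were tested. With 0.5 added to both FPKM values, the log2 difference was -1.24 for *Camp* to *Ngp*, -2.58 for *Mpo* to *Ngp* and -1.65 for *Cd177* to *Ngp*, the added constant weighing most on low genes. Both groups carry the same replicate numbers. Deviations of libraries with the same number correlated at 0.116, 0.036 and 0.264, and those with unlike numbers at -0.233 to 0.16. These ranges overlapped, so whether the numbers pair the samples was not settled, and the main fit did not use them. With the replicate number as a block 7 members were called, and 5934 of all genes in place of 5027. The precision of *Ly6g*, *Mpo* and *Elane* is limited by depth.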
